A study of Homo sapiens with 4 samples.

Results

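The messages described here encode the eukaryotic translation initiation factors, the proteins that bring a ribosome to the start codon of a messenger RNA. They were taken as every protein-coding gene whose symbol in the authors' deposited table begins with EIF and a factor number from 1 to 6, leaving out the 4 eIF2 kinases. This gave 51 of 61543 genes. Of these 51, 50 passed the filter on low counts, and EIF5AL1, at 0 to 17 counts, did not. A member of low abundance could pass through 1 group alone.

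The RNA was recovered from medium in which HEK293T cells, an established line from human embryonic kidney, had grown. The cells released EPN24 nanocages, protein shells that bud from the cell. In 1 group EPN24 was joined to Cas13d, as the group's label gives it, a CRISPR effector guided to RNA targets, and the second group carried EPN24 alone, with 2 libraries each. HEK293T cells, medium and preparation were shared by both groups, and the labels give no guide RNA, plasmid dose or time. Total RNA of 200 µl of cleared and filtered supernatant was sequenced with ERCC spike-in RNA, so RNA inside the shells was not told apart from other RNA, and neither were more releasing cells from more RNA released per cell.

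Initiation runs through a chain of complexes. eIF2 carries the initiator tRNA as a GTP-bound complex, and eIF2B recharges it with GTP. eIF3, eIF1, eIF1A and eIF5 join it on the small ribosomal subunit, while eIF4E binds the cap of the messenger RNA, eIF4G bridges cap and ribosome, and eIF4A unwinds the leader with the help of eIF4B or eIF4H. eIF5B then joins the large subunit, from which eIF6 must be removed. In growing cells such as HEK293T these factors are broadly expressed, and the 4E-BP proteins and phosphorylation of eIF2 restrain them.

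Gene counts per library were 4863449 to 5097332 in EPN24-Cas13d and 1830860 to 1903492 in EPN24. All 8 HEK293 markers looked for (KRT8, KRT18, VIM, NEFL, NEFM, ENO2, PAX2 and EYA1) had counts in every library. Of 8 markers of other cell types, HBA1 was at 0 in all 4 libraries, and the 8 together summed to 3.61 and 5.54 CPM in EPN24-Cas13d and to 43.7 and 37.9 CPM in EPN24. The part of such low counts in the results below was not tested. CPM here is a count per 1e6 counts of the TMM-scaled library (TMM scales libraries by a trimmed mean of log ratios over genes). On this scale 3 counts corresponded to 0.721 and 0.755 CPM in EPN24-Cas13d and to 1.34 and 1.42 CPM in EPN24. The labels do not say whether replicates were separate cultures, so the p-values rest on library-to-library spread that may be technical.

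Because the initiation factor messages differed in base composition as well as in abundance, the first 120 coding bases (40 codons) of 8 of them are shown from GENCODE 29, 5′ to 3′, with a capital wherever the last base of a codon is G or C. EIF4H, EIF3B and EIF4G1 had high relative abundance in EPN24-Cas13d, EIF5B, EIF4E and EIF1AX low, and EIF4A1 and EIF4A2 are paralogs that went opposite ways.
EIF4H: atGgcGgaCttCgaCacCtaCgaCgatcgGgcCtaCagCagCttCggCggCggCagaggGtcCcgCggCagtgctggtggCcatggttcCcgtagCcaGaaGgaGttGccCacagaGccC
EIF3B: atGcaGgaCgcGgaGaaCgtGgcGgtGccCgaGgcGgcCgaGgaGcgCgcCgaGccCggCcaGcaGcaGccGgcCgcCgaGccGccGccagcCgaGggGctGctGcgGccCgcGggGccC
EIF4G1: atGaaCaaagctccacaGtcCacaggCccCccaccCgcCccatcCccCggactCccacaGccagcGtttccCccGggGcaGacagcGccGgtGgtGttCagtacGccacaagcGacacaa
EIF5B: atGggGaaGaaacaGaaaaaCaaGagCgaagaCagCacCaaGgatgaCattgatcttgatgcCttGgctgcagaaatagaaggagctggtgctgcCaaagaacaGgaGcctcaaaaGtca
EIF4E: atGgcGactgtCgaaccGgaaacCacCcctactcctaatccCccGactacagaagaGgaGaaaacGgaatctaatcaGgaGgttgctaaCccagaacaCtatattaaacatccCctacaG
EIF1AX: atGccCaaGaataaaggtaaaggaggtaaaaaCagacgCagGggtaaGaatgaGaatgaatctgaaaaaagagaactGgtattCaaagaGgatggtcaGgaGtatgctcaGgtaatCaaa
EIF4A1: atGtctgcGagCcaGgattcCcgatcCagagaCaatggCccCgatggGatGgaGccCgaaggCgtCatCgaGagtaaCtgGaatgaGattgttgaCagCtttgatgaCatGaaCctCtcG
EIF4A2: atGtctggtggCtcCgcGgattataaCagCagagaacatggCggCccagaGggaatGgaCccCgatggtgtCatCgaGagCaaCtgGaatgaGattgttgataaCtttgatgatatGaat
In these 40 codons the last base was G or C in 39 of EIF3B, 31 of EIF4H, 27 of EIF4A1, 24 of EIF4G1, 21 of EIF4A2, 18 of EIF5B, 17 of EIF4E and 15 of EIF1AX. The stretches do not stand for the whole coding sequences. Over these, GC at codon ends was 68.1% in EIF3B, 61.4% in EIF4A1, 58.2% in EIF4G1 and 49.4% in EIF4H. It was 43.3% in EIF4A2, 41.0% in EIF4E, 33.8% in EIF1AX and 32.8% in EIF5B. EIF4H thus lay below the median of the tested members, 53.6%.

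Per volume of supernatant, initiation factor messages were far more plentiful with Cas13d, as were gene counts as a whole. The members summed to 384 and 392 counts per 1000 ERCC counts in EPN24-Cas13d and to 15.5 and 13.4 in EPN24, a 26.8-fold difference of the means. Counts of all genes per ERCC count were 56.9 and 59.3 in EPN24-Cas13d and 4.11 and 3.79 in EPN24, so a rise on this scale is not particular to the members. As a share of gene counts they took 0.675% and 0.662% with Cas13d and 0.377% and 0.354% without. Within protein-coding counts the order was the other way, 0.717% and 0.706% with Cas13d and 0.884% and 0.898% without. These sums over chosen members carry no test.

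Relative to the rest of the RNA, the factors split. Of the 50 tested members 25 were higher and 21 lower in EPN24-Cas13d and 4 were not called (edgeR's quasi-likelihood test, Benjamini-Hochberg adjusted, TMM scaling). EIF1B, EIF1AX, EIF2S3B, EIF4E, EIF4E1B, EIF5A2 and EIF5B passed the filter on low counts through EPN24 alone. EIF3CL and EIF4EBP3 passed it through EPN24-Cas13d alone. These members met the filter only where they were high, so their p-values are not support apart from the counts. EIF3J reached the filter's level in only 1 EPN24-Cas13d library and needed EPN24 to pass, so the same limit holds for it. Among all 20476 tested genes 80.9% were called, 32.6% higher and 48.2% lower, and among the protein-coding ones 79.9%, 37.0% and 42.9%, so a call as such does not set the members apart. The median log2 fold change was 0.38 over the members, -0.40 over tested protein-coding genes and -0.96 over all tested genes. A value of 0 is thus not that of the typical gene, and a member called lower can lie above the median of all tested genes. Scaling to ERCC totals moved the median of all tested genes up by 3.34 and gave 40 members higher, 1 lower (EIF5B) and 9 not called, where 60.7% of all genes were called, 58.4% higher and 2.33% lower. All 25 members that were higher with TMM stayed so on ERCC scaling. Of the 21 lower members 11 turned to higher, 9 were not called and 1 stayed lower. Other settings also moved the split, to 18 higher and 23 lower with total counts (81.7% of all genes called, 27.1% higher and 54.5% lower) and to 28 and 11 with the GC trend removed (69.7%, 35.4% and 34.3%). A stricter filter, requiring 10 counts and 10 CPM in at least 2 libraries, gave 15 and 22 of 46 (82.4%, 40.7% and 41.7%). With the replicate number as a block the split was 22 and 20 (73.5%, 32.0% and 41.5%), and EIF3G (0.50, adjusted p = 0.0525), EIF4E3 (0.86, 0.0513), EIF3CL (2.14, 0.115) and EIF2S3B (-2.39, 0.223) lost their calls in edgeR's test. Total counts ended the calls of EIF3CL, EIF3G, EIF3I, EIF4A3, EIF4E3, EIF4EBP1 and EIF6. The stricter filter ended those of EIF3G, EIF3I, EIF4A3, EIF4E2, EIF4E3, EIF4EBP1, EIF5 and EIF6, and subtracting background those of EIF3G, EIF3I, EIF4A3, EIF4E2, EIF4EBP1, EIF5 and EIF6. No filter ended those of EIF2S1, EIF2S3, EIF2S3B, EIF3E, EIF4G3 and EIF5A. Removing the length trend ended those of EIF2S3, EIF4G3 and EIF5A and turned EIF3E to higher (0.76). DESeq2 did not call EIF2S3B, EIF3CL, EIF3G, EIF4E3 and EIF4G3, and limma-voom did not call EIF3G. The authors' deposited table called 39 members higher and 1 lower at an adjusted p under 0.05. Log2 fold changes in the authors' deposited table lay, for the 50 tested members, a median of 3.32 above those on TMM scaling and within 0.23 of those on ERCC scaling. Log2 fold changes below are on TMM scaling, as EPN24-Cas13d minus EPN24, and the ERCC value follows where the direction or call differs.

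**Figure D1:**
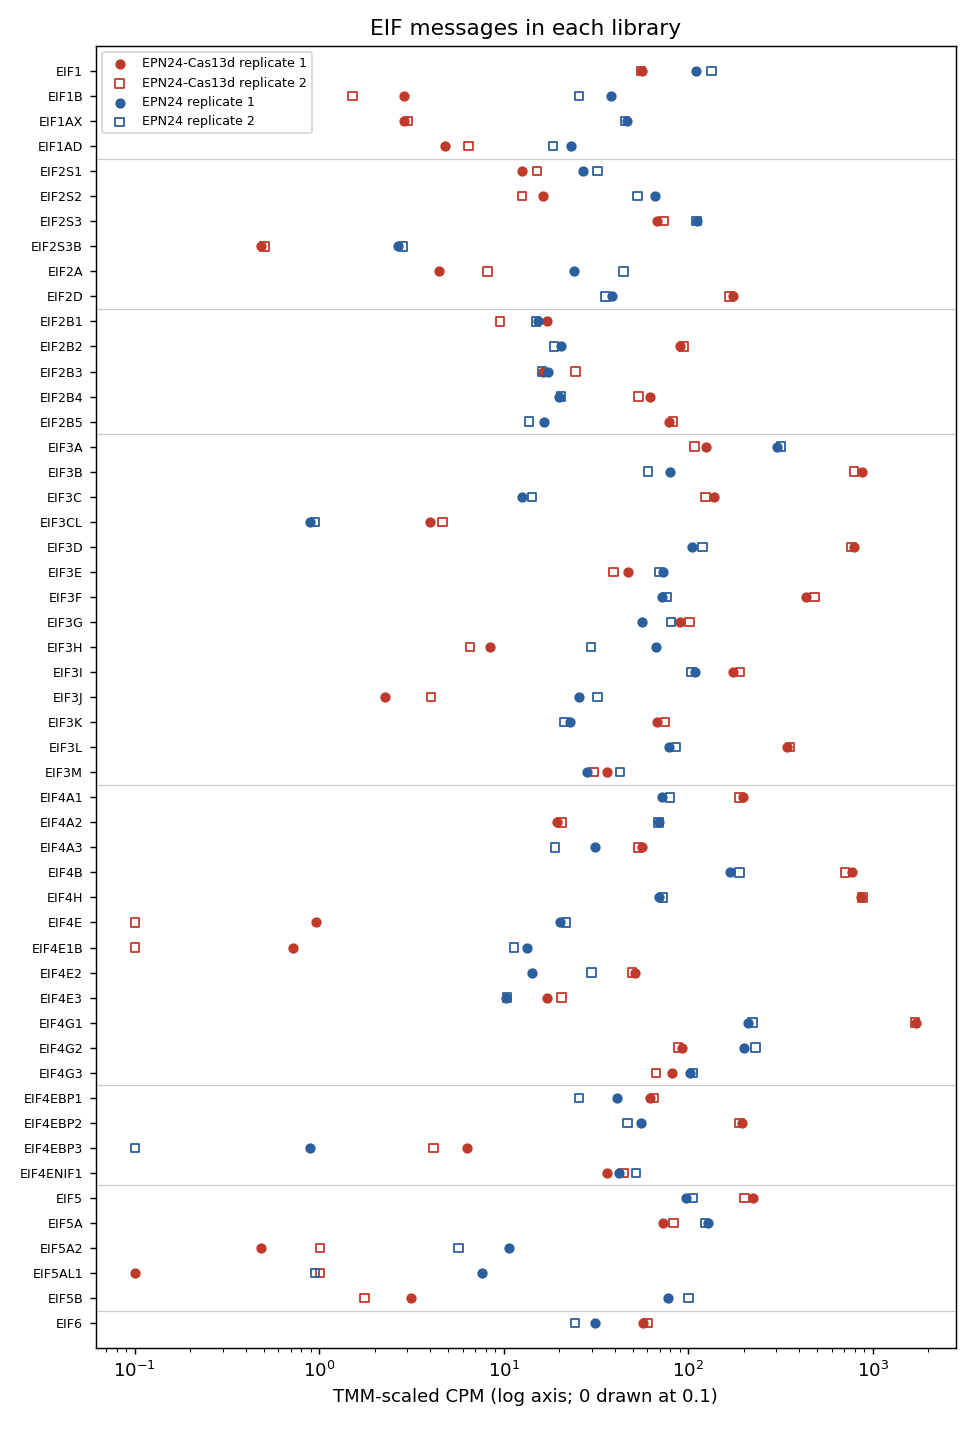
TMM-scaled CPM on a log axis for the 51 initiation factor messages, grouped by factor; red symbols are the 2 EPN24-Cas13d libraries and blue symbols the 2 EPN24 libraries (filled circles replicate 1, open squares replicate 2), and a value of 0 is drawn at 0.1. The red points of EIF4G1 lie at 1722 and 1690 CPM, and those of EIF4E and EIF4E1B under 1 CPM.

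All 4 messages of the eIF1 and eIF1A group, formed by symbol, were relatively lower on TMM scaling. EIF1, which holds the scanning ribosome open until the start codon is found, measured 55.8 and 55.4 CPM in EPN24-Cas13d and 111 and 134 CPM in EPN24. Its log2 fold change was -1.13 (SE 0.16, adjusted p = 2.59e-05), turning to 2.24 with ERCC scaling and at -0.27, not called, with the GC trend removed. EIF1B, its paralog, measured 2.88 and 1.51 CPM against 38.1 and 25.6 CPM, a log2 fold change of -3.83 (-0.52 and not called with ERCC scaling). The EPN24-Cas13d libraries were below both EPN24 libraries for each of the pair, which does not set the pair apart from the other lower members. Their coding sequences were identical at 82.2% of 342 aligned bases, and 51 of the 61 differences fell on the last base of a codon. EIF1AX, which encodes eIF1A, measured 2.88 and 3.02 CPM against 46.4 and 45.4 CPM, a log2 fold change of -3.94 (SE 0.32), or -0.60 and not called with ERCC scaling. EIF1AD, a protein with an eIF1A-like domain, was at -1.87, turning to 1.47 with ERCC scaling.

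Of the 3 subunits of eIF2 itself, all were relatively lower on TMM scaling, while the messages of eIF2B, its exchange factor, were higher or not called. EIF2S3, the gamma subunit that binds GTP and initiator tRNA, measured 67.5 and 73.2 CPM against 112 and 111 CPM, a log2 fold change of -0.66 (SE 0.15, adjusted p = 0.00126), turning to 2.70 with ERCC scaling and to 0.76 and higher with the GC trend removed. EIF2S2, the beta subunit, measured 16.2 and 12.6 CPM against 66.0 and 53.0 CPM (-2.04, turning to 1.31), and EIF2S1, the alpha subunit that the stress kinases phosphorylate, was at -1.09 (turning to 2.27, and to 0.96 and higher with the GC trend removed). The call of EIF2S3 was lost without either EPN24-Cas13d replicate (-0.60 without replicate 1, -0.72 without replicate 2), and that of EIF2S1 without EPN24-Cas13d replicate 1 (-0.96). EIF2S3B, an autosomal copy of EIF2S3 with 98.2% of 1419 coding bases identical, held 4 counts against 12 over each group, a log2 ratio of -2.49 with exact 95% binomial bounds of -4.58 and -0.76, for counting error only. If both reads of a pair were counted, these bounds are too narrow, and all counts of EIF2S3B were even. Near-identical copies can share reads, so its values are uncertain, and its call was lost without EPN24 replicate 1 or replicate 2 (-2.42 and -2.35).

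Both other proteins of this group that can bring a tRNA to the ribosome outside the eIF2 complex passed the test, in opposite directions on TMM scaling. EIF2A measured 4.45 and 8.18 CPM against 23.9 and 44.5 CPM, a log2 fold change of -2.46 (0.92 with ERCC scaling and -0.50 with the GC trend removed, neither called). EIF2D, also known for ribosome recycling, measured 174 and 167 CPM against 38.8 and 35.5 CPM, a log2 fold change of 2.19 (SE 0.16, adjusted p = 1.34e-08). Among the messages named after eIF2, EIF2D was the only one of 6 that was higher on TMM scaling.

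Among the 5 eIF2B subunits 3 were higher, 2 were not called and none was lower. EIF2B5, the catalytic epsilon subunit, measured 78.7 and 82.6 CPM against 16.5 and 13.7 CPM, a log2 fold change of 2.41 (SE 0.22, adjusted p = 2.36e-07). Its 37 and 29 counts in EPN24 lay within 3 times the odorant receptor density given below. EIF2B2, the beta subunit, measured 89.9 and 94.4 CPM against 20.5 and 18.7 CPM (2.22), and EIF2B4, the delta subunit, 62.0 and 53.7 CPM against 19.8 and 20.4 CPM (1.53). The groups did not overlap for these 3, nor for the other called members, so this does not set eIF2B apart. The share of all tested genes without overlap is not given here. For the alpha subunit EIF2B1 the groups overlapped, at 17.1 and 9.56 against 15.4 and 14.9 CPM (-0.18, SE 0.37), as for the gamma subunit EIF2B3 (0.28, SE 0.32). With ERCC scaling all 5 were higher.

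The subunits of eIF3, the largest initiation factor, spanned most of the range: 9 of 14 messages were higher, 4 lower and 1 not called, with a median log2 fold change of 1.24. EIF3B, which with EIF3G and EIF3I forms a module near the messenger RNA entry channel, measured 870 and 788 CPM against 79.4 and 60.6 CPM, a log2 fold change of 3.56 (SE 0.14, adjusted p = 1.77e-11). Its partners moved less, EIF3I by 0.78 and EIF3G by 0.48 (SE 0.19, adjusted p = 0.0269). The EIF3G call was lost without EPN24-Cas13d replicate 1 (0.57), without EPN24-Cas13d replicate 2 (0.39) and without EPN24 replicate 1 (0.27), and turned to -0.52 and lower with the GC trend removed. EIF3D, a subunit that can itself bind the cap of some messages, measured 791 and 767 CPM against 104 and 119 CPM, a log2 fold change of 2.80 (SE 0.12). Within the octameric core EIF3C, EIF3F, EIF3K and EIF3L were also higher, at 3.29, 2.63, 1.69 and 2.09, EIF3L with 340 and 357 CPM against 78.7 and 85.5 CPM. The core as a whole was not, since its other subunits EIF3A, EIF3E and EIF3H were lower and EIF3M was not called.

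The 4 lower eIF3 messages include EIF3A, the scaffold of the complex, which measured 125 and 108 CPM against 301 and 319 CPM, a log2 fold change of -1.41 (SE 0.12), turning to 1.95 with ERCC scaling and standing at -0.07, not called, with the GC trend removed. EIF3J, a loosely bound subunit, measured 2.28 and 4.03 CPM against 25.4 and 32.2 CPM (-3.15, and on ERCC scaling 0.21, not called). EIF3H was at -2.68 (0.63 with ERCC scaling and -0.81 with the GC trend removed, neither called) and EIF3E at -0.72 (turning to 2.63, and to 1.52 with the GC trend removed). Without EPN24 replicate 1 EIF3H was at -1.94. The EIF3E call was lost without EPN24-Cas13d replicate 2 (-0.60). EIF3M was not called at -0.08 (SE 0.25). EIF3C and EIF3CL share 100.0% of 2742 aligned coding bases, so the counting could split reads between them. EIF3C measured 138 and 124 CPM against 12.5 and 14.2 CPM, and EIF3CL, with 4 counts over both EPN24 libraries, 3.97 and 4.66 CPM against 0.892 and 0.947 CPM, a log2 ratio of 2.23 with exact 95% binomial bounds of 0.74 and 4.18. The EIF3CL call was lost without EPN24 replicate 1 or replicate 2 (2.12 and 2.19). In EPN24 EIF3C held 28 and 30 counts, and like EIF3CL it lay within 3 times the odorant receptor density given below.

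Although eIF3 subunits work in 1 complex, their messages did not stand at like levels. Per kb of deposited exon length, the 13 subunits without EIF3CL ranged in EPN24-Cas13d from 204 CPM per kb (EIF3D) to 1.01 CPM per kb (EIF3J), a 202-fold span. In EPN24 they ranged from 43.6 (EIF3A) to 1.89 CPM per kb (EIF3E), a 23.1-fold span. The low place of EIF3E rests on a deposited exon length of 37761 bp. Per kb of its longest-coding GENCODE transcript, of 1543 bases, EIF3E stood at 28.0 and 46.3 CPM per kb in the 2 groups. In EPN24-Cas13d EIF3D (207 and 201 CPM per kb) was above EIF3B (96.8 and 87.6) and EIF3L (79.2 and 83.0), all beyond the spread of the libraries. EIF3A, first of the subunits in EPN24 on this length at 42.4 and 44.9 CPM per kb, stood at 17.6 and 15.2 in EPN24-Cas13d. Per kb of transcript EIF3I (73.0), EIF3G (62.0) and EIF3D (51.9) stood above EIF3A (46.6) in EPN24.

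**Figure D2:**
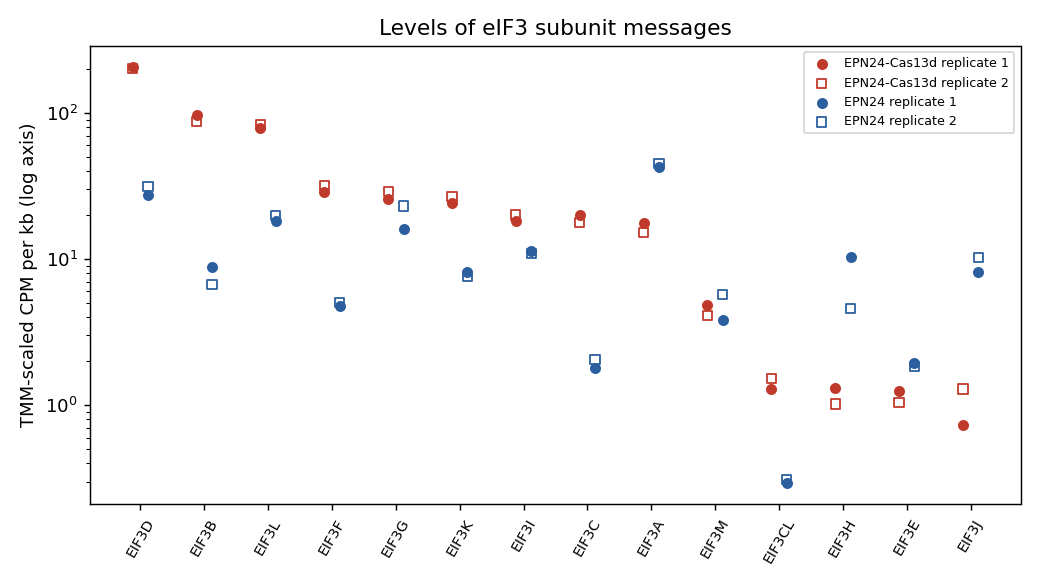
Levels of the 14 eIF3 subunit messages as TMM-scaled CPM per kb of deposited exon length on a log axis, ordered by the mean in EPN24-Cas13d; red symbols are the EPN24-Cas13d and blue symbols the EPN24 libraries (filled circles replicate 1, open squares replicate 2). EIF3D lies highest in red at 207 and 201, and EIF3A highest in blue at 42.4 and 44.9.

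By CPM in EPN24-Cas13d the most abundant member belonged to the cap-binding machinery, whereas in EPN24 it was EIF3A. EIF4G1, the main scaffold that joins eIF4E, eIF4A and eIF3 (ENSG00000114867.22, hg38 chromosome 3, 184314495 to 184335358 on the plus strand), measured 1722 and 1690 CPM in EPN24-Cas13d against 211 and 223 CPM in EPN24. Its log2 fold change was 2.97 (SE 0.10, adjusted p = 4.99e-12). EIF4H, an RNA-binding helper of eIF4A (ENSG00000106682.16, chromosome 7, 74174231 to 74197122 on the plus strand), measured 860 and 876 CPM against 69.6 and 72.9 CPM. At 3.61 (SE 0.12, adjusted p = 3.68e-12) it had the largest log2 fold change of the 50 members. EIF4B, the related helper, measured 772 and 708 CPM against 168 and 189 CPM (2.05, SE 0.11). EIF4G1, EIF4H, EIF3B, EIF3D and EIF4B together took 60.2% of member counts in EPN24-Cas13d and 20.7% in EPN24 (means of 2 libraries). Per kb of exon length EIF4G1 and EIF4H stood behind EIF3D alone in EPN24-Cas13d, at 195 and 150 CPM per kb, whereas EIF5A led in EPN24 at 46.8 CPM per kb. On the transcript length the leaders did not differ beyond the spread of the libraries. EIF4B measured 399 and 366 CPM per kb of transcript and EIF3D 367 and 356 in EPN24-Cas13d, and EIF5A 158 and 152 and EIF1 139 and 168 in EPN24.

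Paralogs of the same eIF4 subunit differed. EIF4A1, the main RNA helicase of initiation (ENSG00000161960.16, chromosome 17, 7572824 to 7579006 on the plus strand), measured 198 and 189 CPM against 72.2 and 79.8 CPM, a log2 fold change of 1.35 (SE 0.14, adjusted p = 7.19e-07). EIF4A2 (ENSG00000156976.17, chromosome 3, 186783205 to 186789897 on the plus strand) had about the same level in EPN24, 69.4 and 69.0 CPM, but measured 19.5 and 20.5 CPM in EPN24-Cas13d, a log2 fold change of -1.79 (SE 0.21, adjusted p = 2.82e-06). With ERCC scaling both were higher, at 4.72 and 1.57, and with the GC trend removed EIF4A2 was at 0.34 and not called. The coding sequences of the pair were identical at 76.9% of 1221 aligned bases. Of the 282 differences 215, or 76.2%, fell on the last base of a codon, and GC at codon ends was 61.4% in EIF4A1 and 43.3% in EIF4A2, as the stretches printed above show in part. EIF4A3, the helicase of the exon junction complex with GC at codon ends of 62.6%, measured 55.8 and 53.4 CPM against 31.2 and 18.9 CPM (1.11, SE 0.25).

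The eIF4G messages showed the same kind of split. EIF4G2, a scaffold that lacks the eIF4E-binding site, measured 92.3 and 88.1 CPM against 201 and 231 CPM (-1.26, SE 0.13), turning to 2.11 with ERCC scaling and to 0.57 with the GC trend removed. EIF4G3 measured 81.2 and 66.9 CPM against 102 and 106 CPM (-0.49, SE 0.16, adjusted p = 0.0128), turning to 2.87 with ERCC scaling and to 0.41 with the GC trend removed. In EPN24 EIF4G1 and EIF4G2 overlapped in CPM, and in EPN24-Cas13d they did not. The call of EIF4G3 was lost without EPN24-Cas13d replicate 1 (-0.63) or replicate 2 (-0.35). GC at codon ends was 58.2% in EIF4G1, 42.6% in EIF4G2 and 43.3% in EIF4G3.

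The message of the cap-binding protein itself was near the floor of detection in EPN24-Cas13d. EIF4E (ENSG00000151247.13, chromosome 4, 98879276 to 98929133 on the minus strand) measured 0.962 and 0 CPM in EPN24-Cas13d against 20.1 and 21.8 CPM in EPN24. With 4 counts against 91 the log2 ratio was -5.41, with exact 95% binomial bounds of -7.32 and -4.00, and edgeR's log2 fold change was -5.30 (SE 0.68, adjusted p = 9.00e-06), or -2.04 and not called with ERCC scaling. EIF4E and EIF4E1B passed the filter on low counts through EPN24 alone. In the replicate at 0 counts alone, taken at a floor of 3 counts, EIF4E was at least 27.7-fold below the EPN24 mean. The bound of -4.00 over both replicates is a smaller difference. EIF4E1B, a form of the protein known from oocytes, had 3 counts against 54, a log2 ratio of -5.07 (interval -7.39 to -3.45), or a fitted -1.70 and not called with ERCC scaling. Without EPN24-Cas13d replicate 1 the fitted values of EIF4E and EIF4E1B, then at 0 counts in that group, were -8.86 and -8.11, and without replicate 2 they were -4.38 and -4.02. The other cap-binding homologs were higher: EIF4E2, known as a repressor of translation, measured 51.6 and 49.6 CPM against 14.3 and 29.8 CPM (1.20, SE 0.28), and EIF4E3 17.1 and 20.5 CPM against 10.3 and 10.4 CPM (0.86, SE 0.34, adjusted p = 0.0297). EIF4E2 was at 0.78 without EPN24 replicate 1 and 1.83 without EPN24 replicate 2. The EIF4E3 call was lost without EPN24-Cas13d replicate 1 (0.99), EPN24-Cas13d replicate 2 (0.72) or EPN24 replicate 1 (0.87).

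Of the 4 messages for proteins that bind eIF4E, 3 were higher and 1 was not called. EIF4EBP2 measured 196 and 190 CPM against 55.3 and 46.9 CPM, a log2 fold change of 1.91 (SE 0.15, adjusted p = 3.81e-08). EIF4EBP1, the best known of these mTORC1 substrates, measured 62.0 and 64.9 CPM against 41.0 and 25.6 CPM (0.92, SE 0.23), turning to -0.69 with the GC trend removed. EIF4EBP3 measured 6.33 and 4.15 CPM against 0.892 and 0 CPM. With 43 counts against 2 the log2 ratio was 3.52, with exact 95% binomial bounds of 1.58 and 6.62, and the call was lost without EPN24 replicate 2, at a fitted 2.49, while without EPN24 replicate 1 the fitted value was 7.15. EIF4ENIF1, which carries eIF4E into the nucleus and to P-bodies, was not called, at 36.3 and 44.4 CPM against 41.9 and 52.1 CPM (-0.22, SE 0.22).

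In the last steps of initiation, EIF5 and EIF5B went opposite ways. EIF5, which triggers GTP hydrolysis by eIF2, measured 223 and 202 CPM against 96.8 and 106 CPM, a log2 fold change of 1.07 (SE 0.13). EIF5B, the GTPase that joins the ribosomal subunits (ENSG00000158417.11, chromosome 2, 99337371 to 99401326 on the plus strand), measured 3.12 and 1.76 CPM against 77.6 and 100 CPM. Its log2 fold change was -5.15 (SE 0.31, adjusted p = 1.76e-09), and at -1.80 with ERCC scaling (adjusted p = 0.00122) it was the only member lower on both scalings. EIF5B passed the filter on low counts through EPN24 alone. The authors' deposited table gave EIF5B -1.84 with an adjusted p of 0.00503.

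EIF5A, a factor that frees stalled ribosomes and carries the amino acid hypusine, measured 73.3 and 83.2 CPM against 128 and 123 CPM (-0.68, SE 0.15), turning to 2.68 with ERCC scaling. Its call was lost without EPN24-Cas13d replicate 1 (-0.59). EIF5A2 held 6 counts against 36, a log2 ratio of -3.49 with exact 95% binomial bounds of -5.02 and -2.23, or a fitted -0.14 and not called with ERCC scaling, and its call was lost without EPN24 replicate 1 (-2.86). EIF5AL1, with 98.9% of 465 coding bases identical to EIF5A, had 4 counts against 19 and was not tested. EIF6, which keeps large subunits from joining too early, measured 57.0 and 60.1 CPM against 31.2 and 24.3 CPM (1.08, SE 0.22), or 0.38 and not called with the GC trend removed.

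**Figure D3:**
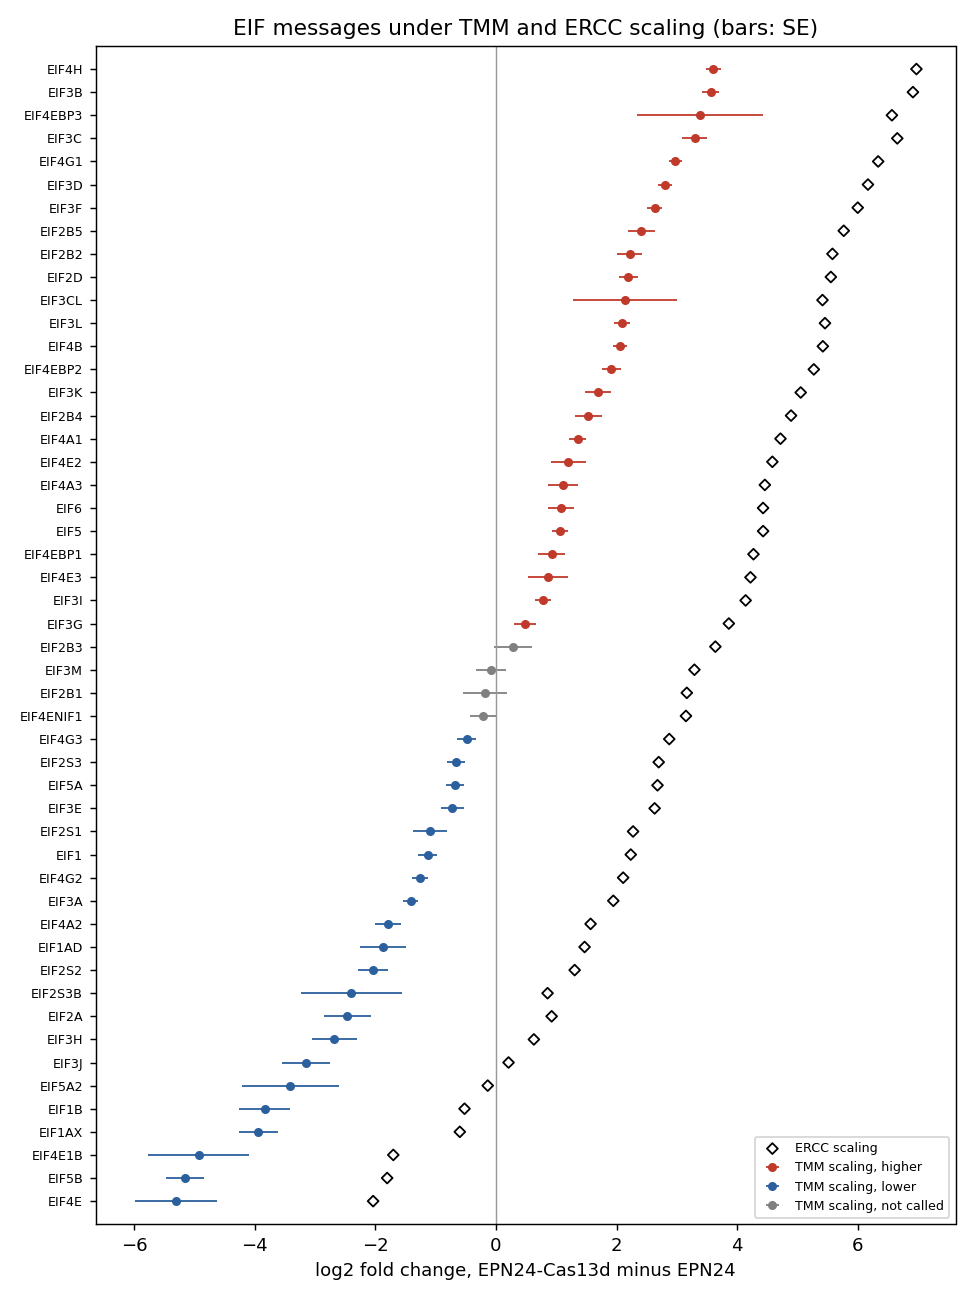
Log2 fold changes of the 50 tested members, EPN24-Cas13d minus EPN24, on TMM scaling (filled points, bars show the approximate SE) and on ERCC scaling (open diamonds), ordered by the TMM value. With TMM 25 lie above 0 and pass the test and 21 lie below and pass; with ERCC scaling the values run from -2.04 (EIF4E) to 6.97 (EIF4H).

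Calls differed with base composition among the members. Of 19 tested members with GC at codon ends under 45%, 2 were higher (EIF4B and EIF5) and 16 lower on TMM scaling, and of 19 with at least 60%, 16 were higher and 3 lower (EIF1AD, EIF4E1B and EIF5A). In between, 7 of 12 were higher and 2 lower, where among protein-coding genes of that class 29.5% were higher and 47.5% lower. Among all protein-coding genes tested, 7.67% were higher and 74.3% lower in the lowest class and 52.8% and 27.8% in the highest, so in those 2 classes the members' majority lay on the same side, and in the middle class on the opposite one. GC at codon ends had a median of 63.4% in the higher members (39.5% to 80.1%) and 40.2% in the lower ones (32.8% to 78.2%). Across the 50 members Spearman's rho between GC at codon ends and log2 fold change was 0.58, against 0.43 across 15141 protein-coding genes. With GC of the whole coding sequence it was 0.66 against 0.47, and with GC of the longest transcript 0.54 against 0.50. With coding length it was 0.21 against 0.079. These correlations are across genes of the same 4 libraries, which are not independent replicates, and are given as a description. On ERCC scaling the median log2 fold change over the members was 3.75.

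**Figure D4:**
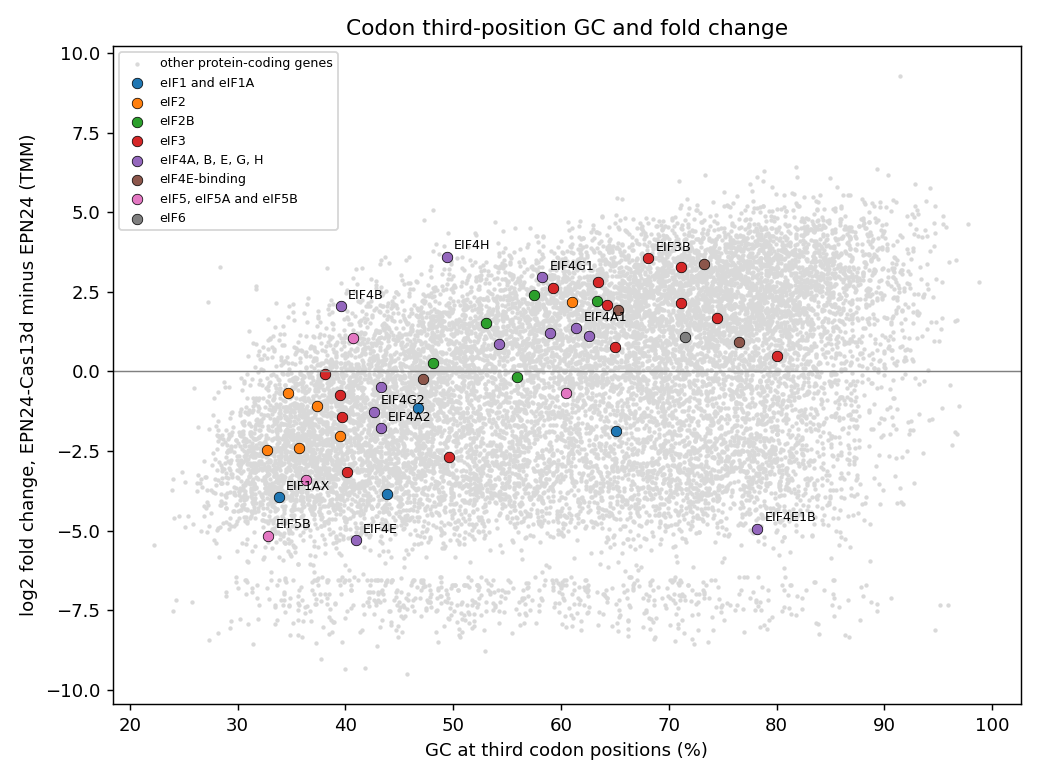
Log2 fold change on TMM scaling against GC at the last codon position in percent, with the 50 members coloured by factor and other tested protein-coding genes in grey. EIF4A1 (61.4%) and EIF4A2 (43.3%) lie on opposite sides of 0; EIF4B (39.5%) and EIF4E1B (78.2%) lie away from the trend. With ERCC scaling EIF4A2 lies above 0.

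The GC trend that was removed is on the GC of each gene's longest transcript, not on GC at codon ends. The 2 measures can differ, as in EIF3F with 40.6% and 59.2%. With this trend over all tested genes removed, 21 of the 25 higher members stayed higher, 2 turned to lower (EIF3G and EIF4EBP1) and 2 were not called (EIF3CL and EIF6). Of the 21 lower ones 9 stayed lower, 7 were not called (EIF1, EIF2S3B, EIF2A, EIF3A, EIF3H, EIF4A2 and EIF5A2) and 5 turned to higher (EIF2S1, EIF2S3, EIF3E, EIF4G2 and EIF4G3). EIF4E1B (-5.64), EIF4E (-3.28), EIF5B (-3.03) and EIF1B (-2.43) stayed lower and were the most negative, and EIF3F (4.44), EIF3C (4.05) and EIF4H (3.54) were the highest. In EPN24, 6 of the higher, 3 of the lower and 0 of the not called members lay within 3 times the density of counts per kb over 370 odorant receptor genes, which serve the sense of smell. The higher ones were EIF2B5 (2.81 times), EIF3C (2.57), EIF4E2 (2.54), EIF4E3 (1.28), EIF4EBP3 (0.89) and EIF3CL (0.40). The lower ones were EIF3E (2.53), EIF5A2 (2.00) and EIF2S3B (1.07). The fold changes of these members rest on EPN24 counts near this density. The odorant receptor density was 1.63 counts per kb in EPN24 and 0.158 in EPN24-Cas13d.

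Messages of proteins that act on the initiation factors numbered 10 higher, 16 lower and 8 not called of 34 tested, with a median log2 fold change of -0.33. Among all tested genes 80.9% were called, 32.6% higher and 48.2% lower, so this split does not set the partners apart. With ERCC scaling 27 were higher and 1 lower (all genes 58.4% and 2.33%), and with the GC trend removed 17 and 7 (35.4% and 34.3%). PAIP2, PDCD4, MCTS1 and MTIF3 passed the filter on low counts through EPN24 alone. PPP1CB and EIF2AK3 reached its level in only 1 EPN24-Cas13d library and needed EPN24 to pass. The p-values of all these partners are not support apart from the counts. Among the regulators of the eIF4 complex 6 of 9 were higher and 3 lower. MKNK2, a kinase that phosphorylates eIF4E, measured 509 and 512 CPM against 27.2 and 18.5 CPM, a log2 fold change of 4.47 (SE 0.16, adjusted p = 9.48e-12). PDCD4, an inhibitor of eIF4A, measured 1.44 and 3.02 CPM against 15.8 and 30.8 CPM (-3.37, SE 0.50). It was at -3.98 without EPN24-Cas13d replicate 2, and at 0.0035 and not called on ERCC scaling.

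Among poly(A)-binding protein and its partners 2 of 6 were higher and 2 lower. LARP1, which binds the starts of messages for the translation machinery, was at 4.44 (SE 0.12, adjusted p = 1.27e-12) and stood at 1797 ± 25.5 against 82.6 ± 8.35 CPM (SD, n = 2). PAIP2, an inhibitor of poly(A)-binding protein, had 0.721 and 0 CPM against 42.5 and 30.5 CPM and was at -6.48, and with ERCC scaling it was the 1 lower partner, at -3.26. Without EPN24-Cas13d replicate 1 or replicate 2 PAIP2 was at -9.66 or -5.57. Of the eIF2 kinases EIF2AK4 (GCN2) was higher at 1.33, EIF2AK3 (PERK) lower at -2.03 (1.30 and not called with ERCC scaling), and EIF2AK1 and EIF2AK2 were not called. Without EPN24-Cas13d replicate 2 EIF2AK3 was at -2.94. Of the eIF2 phosphatase subunits PPP1CA was higher (2.12) and PPP1CB (-3.04, or 0.31 and not called with ERCC scaling) with 2 others lower. With the GC trend removed PPP1CB was at -0.48 and EIF2AK3 at -0.90, neither called, and EIF2AK3 also lost its call with the length trend removed (-1.05) and with background subtracted (-1.54). A list of 8 partners of the 43S complex (factors on the small ribosomal subunit), of scanning and of recycling held none that was higher. Of these partners 5 were lower, from MCTS1 (-2.88, or 0.46 and not called with ERCC scaling) to CDC123 (-0.65, turning to 2.70). The CDC123 call was lost without each of the 4 libraries in turn (-0.87 to -0.47), with the replicate block (-0.66), with no filter, with DESeq2 and with the GC or length trend removed. Both mitochondrial initiation factors were lower, MTIF2 at -1.10 (turning to 2.28 with ERCC scaling) and MTIF3 at -3.53 (-0.22 and not called with ERCC scaling). The MTIF2 call was lost without EPN24-Cas13d replicate 2 (-0.99) or EPN24 replicate 2 (-0.70), with no filter (-0.74) and with the GC (0.52) or length trend (-0.64) removed.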

How the data were processed

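Total RNA of the supernatant was sequenced from 4 libraries after 17 PCR cycles, as 150-nt read pairs, per the labels' protocols. The submitters' processing notes name Trim Galore 0.6.7, STAR 2.7.10a, featureCounts 2.0.1 and DESeq2 1.36.0, with hg38. Of the annotation release, strand and multi-mapping settings nothing was found in the labels, so antisense and overlapping genes were not resolved. The authors deposited expected counts for each gene, unnormalized and partly fractional, and an exon length in bp. Molecular identifiers are not named, so intervals cover counting error only. Of nonzero whole counts, 66.8% to 72.4% per library were even, as when both reads of a pair are counted. Whether they were was not tested. If so, all exact binomial bounds given here are too narrow. Of 61640 deposited rows 5, pieces of a broken gene row, were left out. The authors' deposited DESeq2 table gives a mean normalized count (signal), log2 fold changes with standard errors, a Wald score and p-values. Nothing in the labels names its size factors.

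Counts were rounded and fitted over all genes with edgeR 4.0.16 (R 4.3.3). The 20476 genes that passed filterByExpr were scaled by TMM without ERCC rows and tested by robust quasi-likelihood F tests, with p-values adjusted after Benjamini and Hochberg and a threshold of 0.05. SEs are approximate, taken from the log2 fold change and the F statistic. The replicates differed at 2.39 (EPN24-Cas13d) and 3.39 (EPN24) times the chi-square expected if each count were independent. Counting both reads of a pair would raise this value by itself, so the excess over sampling noise is uncertain. GC at codon ends came from the GENCODE 29 transcript with the longest complete coding sequence, found for all 51 members. The GC trend used the GC of each gene's longest GENCODE 29 transcript. Coding sequences were aligned with Biopython 1.88. The fit was run on simulated data in which 200 of 20476 genes changed. It recovered 45% of the 2-fold and 93% of the 4-fold changes, with 6 false calls. In the data 80.9% of genes were called, so the simulation does not test the scaling under such wide change.

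By rule, values per library are given for the 3 members of highest CPM per kb and those of largest and most negative fold change in each factor group, and for paralogs; others were added after their values were seen. Partners are named by the largest and most negative called fold change of each list. The members and lists were chosen with earlier results of these data known. Alternatives covered scaling, filters, DESeq2 1.42.0, limma 3.58.1 (voom), a replicate block, left-out libraries, GC and length trends, background subtraction and halved counts.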

Additional observations from a re-analysis of the deposited data

How the results depend on the processing

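The median log2 fold change over the tested members, 0.38, was -0.19 with total counts, 3.75 with ERCC totals, 0.64 with no filter, -0.48 with the stricter filter, 0.95 and 0.85 with the GC or length trend removed, -0.25 with background subtracted and 0.32 with halved counts. Leaving out each library gave 0.28 to 0.55. Members higher numbered 40 with ERCC totals and 15 with the stricter filter, which tests fewer genes, and members lower 1 with ERCC totals and 11 with the GC trend removed. Partners higher were 27 with ERCC totals, 17 with the GC trend and 16 with the length trend removed, and partners lower 1 and 7 with the first and second of these. The replicate block gave 22 members higher and 20 lower. Same-numbered libraries did not deviate together (correlation -0.0041), so the numbers are only shared. The cause of these changes was not tested.

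The sign turned with ERCC totals for EIF1 (2.24), EIF1AD (1.47), EIF2S1 (2.27), EIF2S2 (1.31), EIF2S3 (2.70), EIF2S3B (0.86), EIF2A (0.92), EIF2B1 (3.16), EIF3A (1.95), EIF3E (2.63), EIF3H (0.63), EIF3J (0.21), EIF3M (3.29), EIF4A2 (1.57), EIF4G2 (2.11), EIF4G3 (2.87), EIF4ENIF1 (3.15), EIF5A (2.68), EIF2AK3 (1.30), PPP1CB (0.31), CDC123 (2.70), MCTS1 (0.46), PDCD4 (0.0035) and MTIF2 (2.28). It turned with the GC trend removed for EIF2S1 (0.96), EIF2S3 (0.76), EIF2B1 (0.78), EIF3E (1.52), EIF3G (-0.52), EIF3M (2.14), EIF4A2 (0.34), EIF4G2 (0.57), EIF4G3 (0.41), EIF4EBP1 (-0.69), CDC123 (0.20) and MTIF2 (0.52). With no filter it turned for EIF2B1 (0.18), EIF3M (0.28) and EIF4ENIF1 (0.14), and with the length trend removed for EIF2B1 (0.27), EIF3E (0.76), EIF3M (0.29), EIF4G3 (0.087) and EIF4ENIF1 (0.081). It turned with total counts for EIF2B3 (-0.29) and EIF3G (-0.079), with the stricter filter for EIF2B3 (-0.58), EIF3G (-0.37) and EIF3I (-0.080), and with background subtracted for EIF2B3 (-0.45), EIF3G (-0.41), EIF3I (-0.079) and EIF4EBP1 (-0.0067). Leaving out 1 library at a time gave -0.66 to 0.17 for EIF2B1, -0.035 to 0.54 for EIF2B3 (both turned without EPN24-Cas13d replicate 2) and -0.32 to 0.24 for EIF3M, which turned without EPN24-Cas13d replicate 2 (0.031) and without EPN24 replicate 2 (0.24).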
